A study of Mus musculus with 10 samples.

Results

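Prrx1, Prrx2, Twist1, Twist2, Tbx5, Tbx15, Pitx1, Meox2, Msx1 and Msx2 encode transcription factors of embryonic mesenchyme and limb identity, and their expression was followed in primary mouse embryonic fibroblasts (MEFs) that lack a subunit of the SWI/SNF chromatin remodelling complex. The 10 genes were taken by name, as the probe sets annotated with 1 of these symbols. They were represented by 18 of the 22690 probe sets on the array. Of the 10, 9 were among the 8403 genes bright enough to be tested, and Meox2 was not.

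Arrays of 3 groups were compared: 3 of Snf5-/- cells, 4 of Brg1-/- cells and 3 of wild type (WT) cells. Snf5 (gene symbol Smarcb1) is a core subunit of SWI/SNF, and Brg1 (Smarca4) is one of its ATPases. All 3 groups carried a mixed C57BL/6 and 129 background and came from E13.5 embryos, and the labels give Cre recombinase, brought in by retrovirus, and selection in puromycin at 2.5 ug/ml for every sample, wild type included. The labels do not say how many embryos or cultures stood behind the replicates, nor which embryonic tissues were taken, so p-values measure only the spread between these arrays, which may be technical.

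Fibroblasts keep part of the transcription factor code of the place they came from. In the early limb bud, Prrx1 and Prrx2 mark the mesenchyme that grows out from the flank, Tbx5 is a forelimb factor and Pitx1 a hindlimb factor. Msx1 and Msx2 are homeodomain repressors that answer to bone morphogenetic protein (BMP) signals under the ectoderm, and Twist1 and Twist2 are basic helix-loop-helix factors that hold mesenchyme in an undifferentiated state.

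The labels were first set against the deleted genes. Smarcb1 averaged 296.6 ± 29.8 in Snf5-/- arrays and 951.4 ± 147 in WT arrays (MAS5 intensity, SD, n = 3 each). Smarca4 averaged 450.4 ± 105 in Brg1-/- arrays (SD, n = 4) and 2849 ± 853 in WT arrays (SD, n = 3). All 15 fibroblast genes listed, among them collagens, Vim, Thy1 and Pdgfra, were above background in all 10 arrays. Background here is the highest of 27 bacterial control probe sets on the same array, which lay between 26.7 and 57.4. Passing it does not tell cell types apart, since 10 to 14 of 15 leukocyte markers also passed it in WT arrays.

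Array medians ranged from 145.6 to 233.6, so the arrays did not share a level. Over all tested genes the median log2 change on the deposited scale was -0.271 in Snf5-/- and -0.468 in Brg1-/- cells against wild type, and after quantile normalization it was 0.02 in each. Both scales are therefore given, intensities per array are as deposited, and log2 changes are quantile-normalized unless the deposited scale is named. A gene is written as having risen or fallen only where limma's adjusted p was under 0.05 on both scales. Precision is limited by the few arrays of each group.

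Of the 9 tested members, 2 fell in Snf5-/- cells (Msx2 and Prrx2) and 2 fell in Brg1-/- cells (Msx2 and Twist2), and 0 rose in either. Falling on both scales was found for 7.46% of all tested genes in Snf5-/- and 12.9% in Brg1-/- cells, and rising for 3.15% and 3.43%. Counted in either direction the shares were 10.6% and 16.3%, so 2 of 9 is little above the share over the whole table. On the quantile scale alone 3 members passed in Snf5-/- cells, against 18.1% of all genes, and 4 in Brg1-/- cells, against 27.8%. On the deposited scale alone 3 passed in each mutant, where 19.3% and 47.5% of all genes did. The members' median log2 change was 0.01 in Snf5-/- and 0.14 in Brg1-/- cells, beside medians over all tested genes of 0.02 in each.

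**Figure D1:**
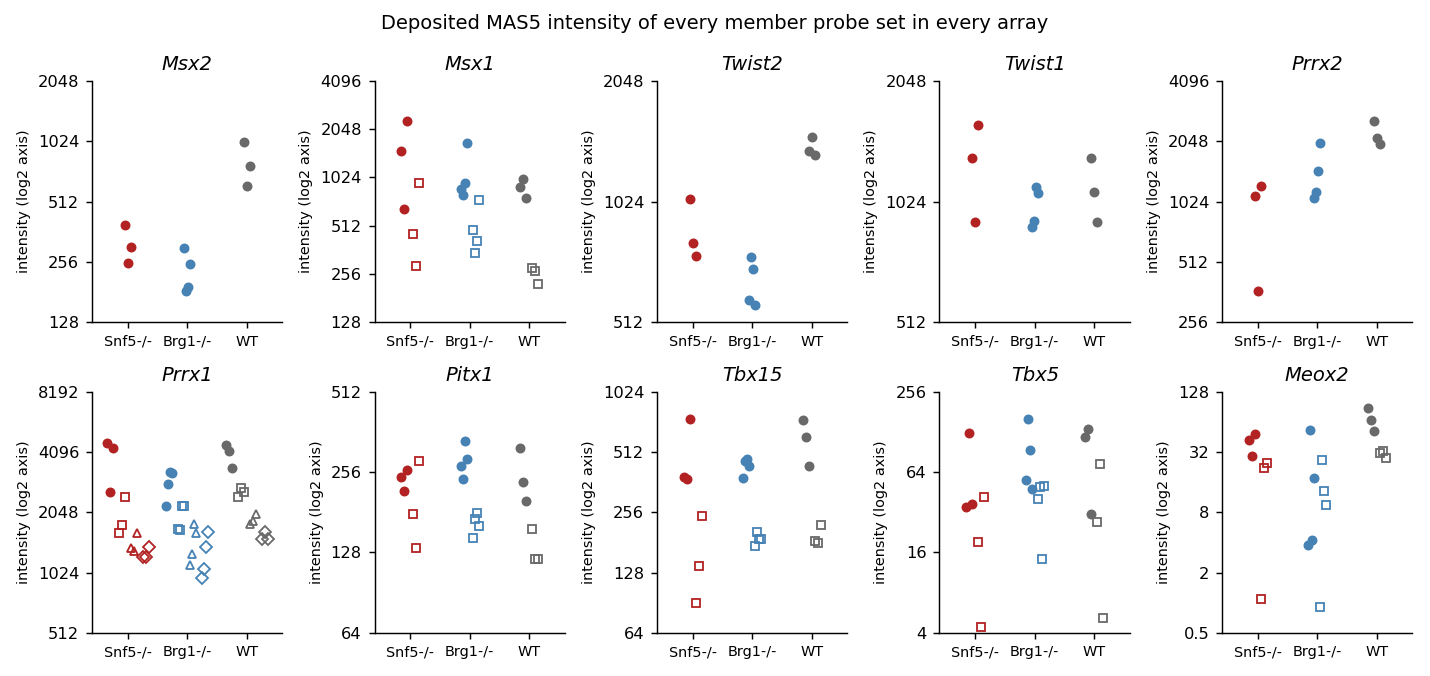
Deposited MAS5 intensity of every member probe set in each of the 10 arrays, on log2 axes whose ranges differ between panels. Each point is 1 array, and marker shapes separate probe sets of 1 gene, with filled circles for the brightest. All 7 mutant arrays lie below all 3 WT arrays for Msx2, and the open squares of Msx1 lie above WT in all 7.

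Msx2 fell in both mutants, in comparisons that share the 3 WT arrays. Its intensity was 392, 253.5 and 302 in Snf5-/- arrays. In Brg1-/- arrays it was 299, 184, 193 and 249, against 1016, 615 and 775 in WT arrays. No mutant array reached the lowest WT array, on either scale. The log2 change was -1.05 ± 0.23 in Snf5-/- cells (SE, limma adjusted p = 0.00799) and -1.34 ± 0.21 in Brg1-/- cells (SE, limma adjusted p = 0.000765), that is, 2.07-fold and 2.54-fold lower. On the deposited scale the changes were -1.34 and -1.79. Among the tested members, Msx2 and Prrx2 had groups that did not overlap on either scale in Snf5-/- cells and Msx2 alone did in Brg1-/- cells, beside 20.8% and 22.3% of all tested genes. In these bulk samples, fewer cells expressing a gene and less RNA per cell cannot be told apart.

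Msx1, the paralogue of Msx2, was measured by a pair of probe sets that differed in their calls. The dimmer one had intensities of 452, 287 and 939 in Snf5-/- arrays. It had 478, 344, 413.5 and 744 in Brg1-/- arrays, against 280.4, 266 and 221 in WT arrays. Every mutant array was above every WT array on both scales, on the deposited scale by a thin margin (287 in Snf5-/- against 280.4 in WT). Among the probe sets that stood for tested genes, 20.8% separated from wild type on both scales in Snf5-/- and 22.3% in Brg1-/- cells. Over all probe sets that share was not counted. In a fit over all probe sets this one rose on both scales in both mutants, by 1.22 in Snf5-/- (log2, limma adjusted p = 0.0287) and by 1.35 in Brg1-/- cells (log2, limma adjusted p = 0.0085). Its deposited-scale changes were 0.96 (adjusted p = 0.0491) and 0.90 (adjusted p = 0.0263), and passing on both scales was found for 10.8% and 15.4% of the 14506 probe sets tested. The call in Snf5-/- cells was lost when any 1 of 5 arrays was left out on the quantile scale, with adjusted p up to 0.088, and in 7 of 10 such fits on the deposited scale, whereas that in Brg1-/- cells passed in all 10 fits on the quantile scale and in 7 of 10 on the deposited scale.

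The brighter Msx1 probe set had 1504, 652 and 2298 in Snf5-/- arrays. Brg1-/- arrays had 872, 793, 947 and 1680, and WT arrays 897, 999.6 and 757. Here the groups overlapped on the deposited scale. Neither change passed, at 0.88 ± 0.36 in Snf5-/- (SE, limma adjusted p = 0.11) and 0.75 ± 0.33 in Brg1-/- cells (SE, limma adjusted p = 0.115). The second Snf5-/- replicate was the only Snf5-/- array below WT on the deposited scale. On the quantile scale it lay within the WT range, at 717.1 against 619.1 to 878.3. Without it the change in Snf5-/- cells was 1.34 (adjusted p = 0.00676) and 1.08 on the deposited scale (adjusted p = 0.0104). That fit drops the array that disagreed, and with all arrays the change did not pass. Leaving out the fourth Brg1-/- replicate instead shrank the change in Brg1-/- cells, as given among the flagged results. Both probe sets thus gave positive log2 changes in both mutants, and the calls differ by probe set.

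Because Msx1 and Msx2 are read on the same array, their ratio within an array does not depend on the level of that array. Set against the mean of WT arrays, the log2 ratio of Msx2 to the brighter Msx1 probe set averaged -1.91 in Snf5-/- arrays, with a range of -2.76 to -1.2. Its mean in Brg1-/- arrays was -2.01, with a range of -2.59 to -1.38, and WT arrays lay between -0.54 and 0.34. With the dimmer Msx1 probe set the means were -2.3 in Snf5-/- and -2.69 in Brg1-/- arrays. The balance of the Msx pair was thus shifted away from Msx2 in all 7 mutant arrays, with no overlap with wild type. A ratio shows unequal change and does not say which of the pair moved, and no test was run on it. It restates the Msx1 and Msx2 intensities given above and adds no separate measurement.

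**Figure D2:**
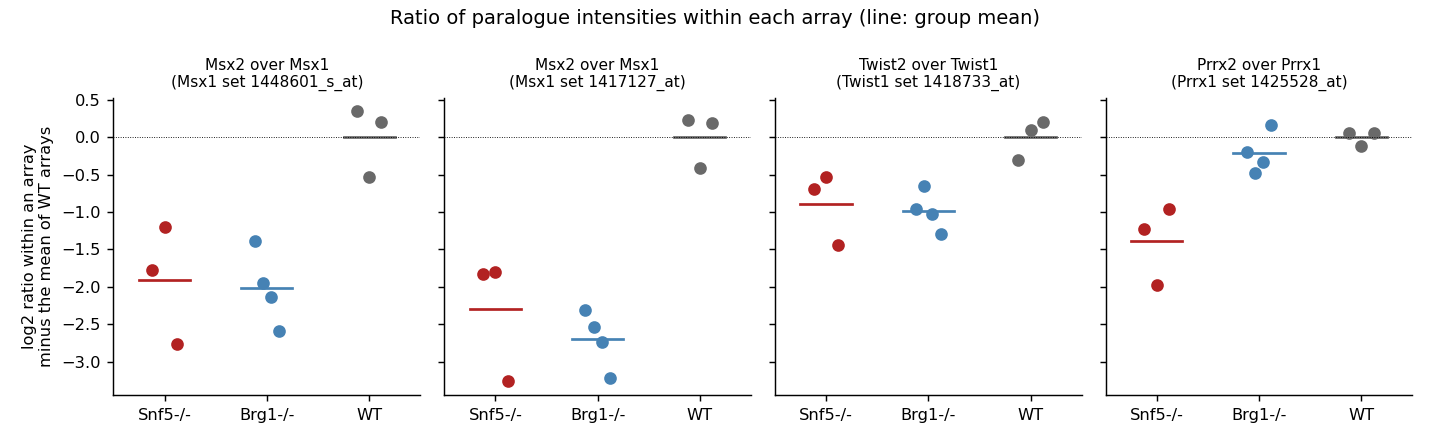
Log2 ratio of each paralogue pair within an array (deposited intensities), minus the mean of the WT arrays, by group. Points are arrays and short lines are group means. Mutant arrays lie below WT for the Msx and Twist pairs, and for Prrx2 over Prrx1, read by its brightest probe set, all 3 Snf5-/- and 3 of 4 Brg1-/- arrays lie below the lowest WT array.

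Twist2, which acts in the dermis and other late mesenchyme, fell in Brg1-/- cells. Its intensity was 1039.6, 808 and 749 in Snf5-/- arrays. It was 582, 746, 696 and 565 in Brg1-/- arrays, against 1372, 1485 and 1338.5 in WT arrays. On the deposited scale all 7 mutant arrays were below all WT arrays. That scale keeps the level of each array. Array medians were 145.6 to 189.9 in mutant arrays and 190.6 to 233.6 in WT arrays. How common such a separation was on the deposited scale alone was not counted, so it is not read as specific to Twist2. On the quantile scale the Snf5-/- and the Brg1-/- arrays each overlapped with WT arrays. The log2 change in Brg1-/- cells was -0.62 ± 0.18 (SE, limma adjusted p = 0.0243) and -1.12 on the deposited scale (adjusted p = 0.000104). In Snf5-/- cells it was -0.40 ± 0.19 (SE, limma adjusted p = 0.181), and on the deposited scale -0.71 (adjusted p = 0.0162). The Brg1-/- call on the quantile scale was lost without the second or the third WT replicate (adjusted p = 0.0998 and 0.0967), and without the first or the fourth Brg1-/- replicate (adjusted p = 0.0516 and 0.0572).

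Twist1, the relative of Twist2 that is needed for limb bud outgrowth and skull sutures, did not change on both scales. Snf5-/- arrays had 1317, 909.6 and 1589, Brg1-/- arrays 883, 915, 1114 and 1075, and WT arrays 1318, 1083 and 908. The deposited intensities of the 3 groups overlapped. Its log2 change passed on the quantile scale alone, at 0.49 ± 0.14 in Snf5-/- (SE, limma adjusted p = 0.0271) and 0.40 ± 0.13 in Brg1-/- cells (SE, limma adjusted p = 0.0347). On the deposited scale the values were 0.18 (adjusted p = 0.572) and -0.14 (adjusted p = 0.587), so in Brg1-/- cells the direction flips with the scale. The ratio of Twist2 to Twist1 does not carry that dependence. Against the WT mean its log2 value averaged -0.89 in Snf5-/- arrays (-1.44 to -0.53) and -0.98 in Brg1-/- arrays (-1.29 to -0.65), with WT arrays between -0.3 and 0.2.

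Prrx2, a paired-related homeobox gene of limb and facial mesenchyme, fell in Snf5-/- cells. Its intensity was 1096, 366 and 1224 in Snf5-/- arrays. Brg1-/- arrays had 1067, 1141, 1454 and 2016, against 2595, 2137 and 1987 in WT arrays. The Snf5-/- arrays were all below WT, and the Brg1-/- arrays reached into the WT range. The log2 change was -1.16 ± 0.34 in Snf5-/- cells (SE, limma adjusted p = 0.034) and -1.50 on the deposited scale (adjusted p = 0.00459). In Brg1-/- cells it was -0.11 ± 0.32 (SE, limma adjusted p = 0.82), and -0.70 on the deposited scale (adjusted p = 0.0724). The direct comparison of Brg1-/- with Snf5-/- cells gave 1.05 ± 0.32 (SE, limma adjusted p = 0.0874), so a difference between the mutants was not shown.

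The size of the Prrx2 change rested on the second Snf5-/- replicate. Without that array the log2 change was -0.66 (adjusted p = 0.0474) and -0.94 on the deposited scale (adjusted p = 0.0118). Leaving out any 1 WT array ended the quantile-scale call, with adjusted p between 0.071 and 0.0963. The same Snf5-/- array stood apart in macrophage and leukocyte genes: the summed quantile-normalized intensity of 15 markers was 12020 there, against 3127 and 3297 in the other Snf5-/- arrays and 2712 to 5836 in WT arrays. It was the lowest Snf5-/- array for 7 of the 9 tested members (77.8%), beside 40.3% of all tested genes.

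Prrx1, the partner of Prrx2 in limb mesenchyme, was read by 4 probe sets. The brightest had 4551, 2582 and 4275 in Snf5-/- arrays. It had 2189, 2839, 3272 and 3211 in Brg1-/- arrays, against 4459, 4133 and 3412 in WT arrays. Its log2 changes of 0.26 ± 0.18 in Snf5-/- (SE, limma adjusted p = 0.342) and 0.14 ± 0.17 in Brg1-/- cells (SE, limma adjusted p = 0.577) did not pass, and on the deposited scale they were -0.11 (adjusted p = 0.738) and -0.48 (adjusted p = 0.049). The other 3 probe sets passed on neither scale in either mutant. The log2 ratio of Prrx2 to this brightest Prrx1 probe set was lower than the WT mean by group means of -1.39 in Snf5-/- and -0.21 in Brg1-/- arrays. All 3 Snf5-/- and 3 of 4 Brg1-/- arrays lay below the lowest WT array. With 1 of the other Prrx1 probe sets all 4 Brg1-/- arrays, at -0.452 to -0.215 relative to the WT mean, also lay below the lowest WT array at -0.136.

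**Figure D3:**
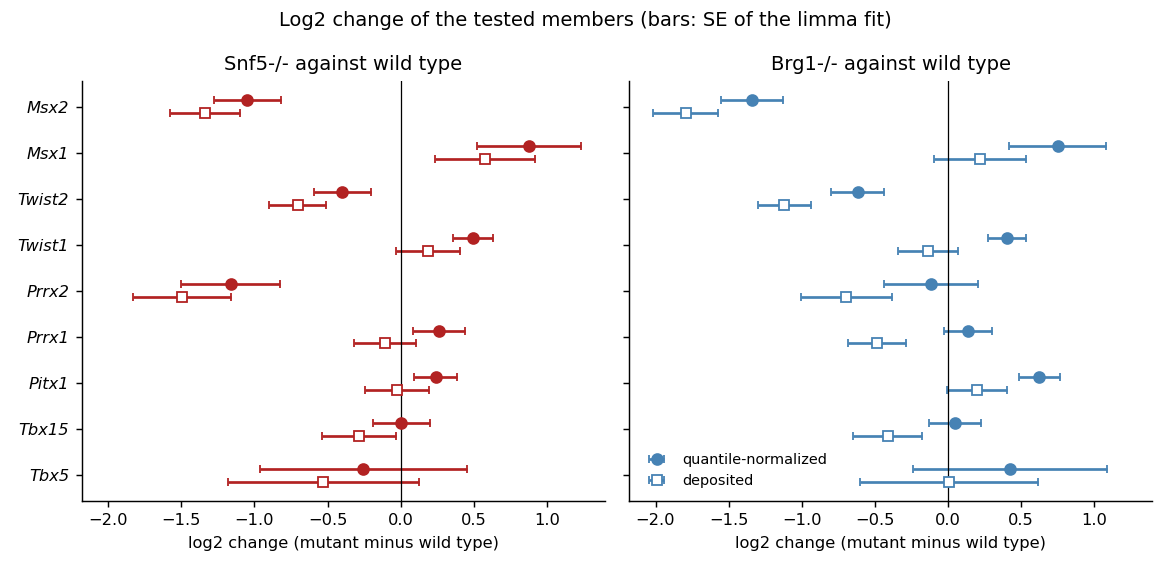
Log2 change (mutant minus wild type) of the 9 tested members in Snf5-/- cells on the left and Brg1-/- cells on the right, with bars for the SE of the limma fit. Filled circles are quantile-normalized and open squares deposited values. Msx2 lies below 0 on both scales in both panels, and Prrx2 lies further below 0 in Snf5-/- than in Brg1-/- cells on both.

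Pitx1, the hindlimb factor, was expressed at a modest level in all groups. Its brighter probe set had 245, 217 and 262 in Snf5-/- arrays. It had 269, 242, 335 and 286 in Brg1-/- arrays, against 315, 235 and 199 in WT arrays. The deposited values overlapped, and the log2 change in Brg1-/- cells passed on the quantile scale alone (0.63 ± 0.14, SE, limma adjusted p = 0.00561) and was 0.20 on the deposited scale (adjusted p = 0.43). In Snf5-/- cells the change was 0.24 ± 0.15 (SE, limma adjusted p = 0.291). The dimmer probe set gave 0.77 in Snf5-/- and 0.72 in Brg1-/- cells (limma adjusted p = 0.0376 and 0.0264 in the probe-set fit) and passed in neither on the deposited scale.

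Tbx5, which marks the forelimb and the heart, was close to background. Its brighter probe set had 35.3, 125 and 37.1 in Snf5-/- arrays. It had 55.4, 160.5, 93.5 and 48 in Brg1-/- arrays, against 118, 135 and 31.1 in WT arrays. Both high and low arrays occurred in each group, and 8 of the 10 arrays were above background. The gene reached the brightness filter through 3 arrays only, and its log2 changes of -0.26 ± 0.71 in Snf5-/- and 0.43 ± 0.66 in Brg1-/- cells (SE) had limma adjusted p of 0.842 and 0.675. At this signal a difference in Tbx5 was not detectable.

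Tbx15, a T-box gene of limb and skin mesenchyme, had 385, 377 and 748 in Snf5-/- arrays. Brg1-/- arrays had 379.5, 462, 473 and 437.5, and WT arrays 741, 607 and 435. The groups overlapped, and the log2 changes were 0.01 ± 0.19 in Snf5-/- and 0.05 ± 0.18 in Brg1-/- cells (SE), with limma adjusted p of 0.99 and 0.861. Meox2, a homeobox gene of somites and limb muscle precursors, lay at the background. Its dimmer probe set was above background in 0 of 7 mutant arrays and in 2 of 3 WT arrays. The other had 41.8, 29.1 and 48.1 in Snf5-/- arrays and 3.8, 52.6, 4.2 and 17.7 in Brg1-/- arrays, against 87.1, 67.5 and 52.1 in WT arrays. That set was above background in 2 of 7 mutant arrays and 2 of 3 WT arrays, and Meox2 did not enter the test.

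Between the mutants, 0 of 9 members passed in limma's comparison of Brg1-/- with Snf5-/- cells on either scale. At an unadjusted p under 0.05 there were 2 on each scale. Of all tested genes 4.37% passed on the quantile scale, 4.3% on the deposited scale and 2.43% on both. The widest member differences were 1.05 ± 0.32 for Prrx2 (SE, limma adjusted p = 0.0874), 0.68 ± 0.66 for Tbx5 (SE, limma adjusted p = 0.593) and 0.39 ± 0.14 for Pitx1 (SE, limma adjusted p = 0.136).

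The members differed in how much they varied among arrays of 1 group. The residual SD, on the log2 scale, was 1.01 for Tbx5, 0.56 for Msx1 and 0.54 for Prrx2, at percentiles 98.6, 93.2 and 92.5 of all tested genes, whose median was 0.211. It was 0.32 for Msx2, and 0.17 for Twist1 and 0.13 for Pitx1, at percentiles 36.5 and 18.8. For Msx1 and Prrx2 the spread was widest in the Snf5-/- arrays, where their SDs were 0.82 and 0.87, against 0.25 and 0.09 in WT arrays.

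Promoter sequence is shown for the members that fell and for Msx1, as the paralogue that differed from Msx2. The 250 bases before the start used by the RefSeq promoter table (GRCm38.p6) are given 5′ to 3′ on the gene's strand, and capitals mark the GC box GGGCGG, the CCAAT box and the TATA box TATAAA, searched on both strands. They lie at chr13:53472781-53473030 (minus strand) for Msx2, chr5:37824586-37824835 (minus strand) for Msx1, chr1:91801211-91801460 (plus strand) for Twist2 and chr2:30845117-30845366 (plus strand) for Prrx2, whose window lies inside the gene's annotated span, which begins at 30845064.
Msx2: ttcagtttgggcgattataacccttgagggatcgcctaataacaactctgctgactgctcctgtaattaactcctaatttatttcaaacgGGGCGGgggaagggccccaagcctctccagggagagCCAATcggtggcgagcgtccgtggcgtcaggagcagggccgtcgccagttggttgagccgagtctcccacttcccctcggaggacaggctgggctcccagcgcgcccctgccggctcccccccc
Msx1: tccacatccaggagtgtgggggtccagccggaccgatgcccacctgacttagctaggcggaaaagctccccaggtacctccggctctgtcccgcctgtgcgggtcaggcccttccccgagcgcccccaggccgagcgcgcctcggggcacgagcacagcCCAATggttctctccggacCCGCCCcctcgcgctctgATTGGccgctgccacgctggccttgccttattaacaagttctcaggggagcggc
Twist2: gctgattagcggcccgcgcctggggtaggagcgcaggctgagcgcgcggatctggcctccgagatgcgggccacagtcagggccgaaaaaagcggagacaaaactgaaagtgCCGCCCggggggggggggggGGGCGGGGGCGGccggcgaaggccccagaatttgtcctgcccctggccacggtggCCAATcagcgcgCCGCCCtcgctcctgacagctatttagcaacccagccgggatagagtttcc
Prrx2: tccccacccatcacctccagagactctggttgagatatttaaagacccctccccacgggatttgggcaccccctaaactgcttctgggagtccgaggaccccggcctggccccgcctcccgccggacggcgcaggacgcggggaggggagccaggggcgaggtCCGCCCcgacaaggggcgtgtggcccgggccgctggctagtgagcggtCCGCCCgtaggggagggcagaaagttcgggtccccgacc

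The Msx2 window holds 1 GC box 160 bases and 1 CCAAT box 124 bases before the start. In Msx1 a GC box at 72 bases is flanked by CCAAT boxes at 91 and 54 bases. Twist2 holds 4 GC boxes, at 138, 118, 112 and 51 bases, and a CCAAT box at 63 bases, and Prrx2 holds 2 GC boxes, at 87 and 39 bases, and no CCAAT box. None of these 4 windows holds TATAAA. Promoters were given for 7 of the 10 members, and of these 6 hold a GC box, 4 a CCAAT box and 2 TATAAA, beside 32.7%, 33.8% and 12.4% of 32851 promoters of the same length. The E-box CANNTG, the core that Twist proteins bind, was found in 3 of 7 windows (66.2% of all promoters), among them those of Msx1 and Msx2. The exact sequence TAATTG, searched as an Msx site (7.17% of all promoters), and the AP-1 core TGANTCA (6.75%) were found in 0 of 7. Other homeodomain sites were not searched. CpG dinucleotides numbered 23 in Twist2, 21 in Prrx2, 20 in Msx1, 16 in Msx2 and 4 in Prrx1, beside a median of 6.

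Other limb patterning genes were read from a list of 28, of which 20 were tested. In Snf5-/- cells 2 fell and 0 rose, and in Brg1-/- cells 2 fell and 1 rose, with a median log2 change of 0.18 in each. Of all tested genes 7.46% fell in Snf5-/- and 12.9% in Brg1-/- cells, and 3.15% and 3.43% rose. The counts of this list lie near those shares, which also belong beside the counts of the gene lists below. Grem1, a BMP antagonist of the limb bud, averaged 2366 ± 654 in Snf5-/- (SD, n = 3), 2027 ± 670 in Brg1-/- (SD, n = 4) and 8757 ± 1850 in WT arrays (SD, n = 3). Its log2 change was -1.55 in Snf5-/- (limma adjusted p = 0.00187) and -1.52 in Brg1-/- cells (limma adjusted p = 0.000813), so it fell in both, as Msx2 did. Etv4, a target of fibroblast growth factor signals in the limb bud, fell by 1.40 and 1.05 on the log2 scale (limma adjusted p = 0.0197 and 0.0368). Lhx2, a LIM homeobox gene of the distal limb, rose by 1.22 in Brg1-/- cells (log2, limma adjusted p = 0.00616). Tbx4, the T-box partner of Pitx1 in the hindlimb, was singled out after its values were seen and averaged 231.9 ± 50.2 in Snf5-/- (SD, n = 3), 266.1 ± 33.1 in Brg1-/- (SD, n = 4) and 197.2 ± 36.2 in WT arrays (SD, n = 3), with no call on both scales.

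Among ligands, receptors and mediators of the BMP pathway, which lies upstream of Msx genes, 12 of 19 listed genes were tested, with median log2 changes of -0.23 in Snf5-/- and -0.02 in Brg1-/- cells. Bmp6 rose in both mutants, by 1.74 in Snf5-/- and by 1.60 in Brg1-/- cells (log2, limma adjusted p = 0.00239 and 0.0016), and was the only one to rise. Its WT mean of 79.03 ± 33.6 (SD, n = 3) was near the background range of 26.7 to 57.4, so the size of the rise is uncertain. The receptor Acvr1 and the inhibitory Smad7 fell in Brg1-/- cells, by 0.37 and 0.36 on the log2 scale (limma adjusted p = 0.0347 and 0.0254). On the deposited scale alone 2 of the 12 passed as lower in Snf5-/- and 5 in Brg1-/- cells, beside 1 as higher in each. Of 12 tested partners and relatives of Twist, Id1 fell in Snf5-/- cells by 1.27 on the log2 scale (limma adjusted p = 0.00769) and Zeb2 fell in Brg1-/- cells by 0.92 (limma adjusted p = 0.0108), with 0 rising and medians of 0.10 and 0.22. Falling was found for 7.46% of all tested genes in Snf5-/- and 12.9% in Brg1-/- cells. Id1 is a BMP-responsive partner that sequesters helix-loop-helix factors.

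Some mesenchyme genes of other body regions were higher in the mutants. Of 17 tested, 2 rose in Snf5-/- cells, 3 rose in Brg1-/- cells and 0 fell in either. The list's median log2 change was 0.38 in Snf5-/- and 0.59 in Brg1-/- cells. Over all tested genes 3.15% rose in Snf5-/- and 3.43% in Brg1-/- cells. On the deposited scale alone 2 of the 17 passed as lower in Snf5-/- and 6 in Brg1-/- cells, beside 2 and 3 as higher. Pax3 rose in both, by 1.12 in Snf5-/- and 1.21 in Brg1-/- cells (log2, limma adjusted p = 0.00951 and 0.00269), and Meox1, the somitic relative of Meox2, rose by 1.36 in Snf5-/- cells (log2, limma adjusted p = 0.00235). Osr1 rose in Brg1-/- cells by 1.42 (log2, limma adjusted p = 0.000188). Osr2 had 72, 147.6, 133.2 and 144.5 in Brg1-/- arrays, against 47.9, 37.1 and 15 in WT arrays, of which 2 of 3 were above background, and its rise there (limma adjusted p = 0.00409) is given without a fold. Of 10 tested Hox genes of groups 9 to 13, the distal and posterior end of the clusters, Hoxd11 and Hoxd13 rose in Brg1-/- cells by 1.52 and 1.51 (log2, limma adjusted p = 0.00791 and 0.00167). Hoxd11 had 162.7, 49.2 and 61.5 in WT arrays, and the first lay within the 135.4 to 220.3 of Brg1-/- arrays. The third was close to its array's background of 57.4. On the deposited scale alone 1 of these 10 genes passed as lower in Snf5-/- cells and 2 in Brg1-/- cells. Of 5 tested genes of groups 1 to 5 and 4 of groups 6 to 8, 0 passed on both scales in limma's fit of either mutant, though Hoxc6, named after its values were seen, passed on the quantile scale alone in Snf5-/- cells (limma adjusted p = 0.0226). At an unadjusted p under 0.05 on the quantile scale, 2 of groups 6 to 8 passed in Snf5-/- cells and 0 in Brg1-/- cells, and 0 of groups 1 to 5 in either. On the deposited scale alone 1 gene of groups 6 to 8 passed after adjustment in each mutant, and 3 of groups 1 to 5 in Brg1-/- cells.

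**Figure D4:**
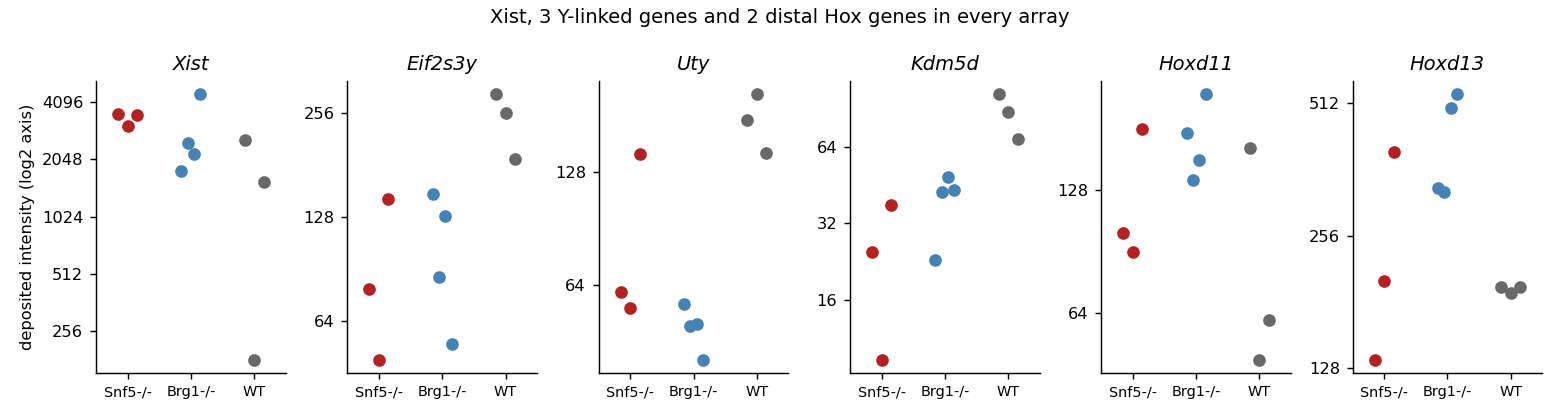
Deposited intensity of Xist, 3 Y-linked genes and 2 distal Hox genes in each array, on log2 axes whose ranges differ. Each point is 1 array. Kdm5d and Eif2s3y are higher in all 3 WT arrays than in any mutant array, and Hoxd13 is higher in all 4 Brg1-/- arrays than in WT.

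Several sex-linked genes differed with genotype. Xist, transcribed from the inactive X chromosome, had 3539, 3068 and 3476 in Snf5-/- arrays and 1783, 2482, 2182 and 4477 in Brg1-/- arrays, against 2575, 182.5 and 1550.3 in WT arrays. The Y-linked Kdm5d lay between 9.3 and 48.6 in the 7 mutant arrays and between 68.9 and 102.9 in WT arrays. Uty had 61.3, 55.7 and 143 in Snf5-/- arrays and 57.1, 49.9, 50.4 and 40.6 in Brg1-/- arrays, against 176, 206.5 and 144 in WT arrays. Eif2s3y was 49.6 to 149 in mutant arrays and 189 to 290.2 in WT arrays. Uba1y overlapped between groups, at 51.8 to 80.9 in Snf5-/- and 23.9 to 92.2 in Brg1-/- arrays, against 51.2 to 120.2 in WT arrays. The labels give no sex for the embryos, and the part of these differences in the members' changes was not tested.

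Some markers of other cells moved with genotype too. The summed quantile-normalized intensity of 14 skeletal muscle markers was 928 to 2093 in Snf5-/- arrays and 774.4 to 1095 in Brg1-/- arrays, against 5251 to 6289 in WT arrays. Between 3 and 7 of the 14 were above background in any array. Deposited intensity of Acta1 was 440 to 1135 in Snf5-/- and 263 to 346 in Brg1-/- arrays, against 4794 to 8808 in WT arrays. The sum mainly follows this gene, which averaged 6352 in WT arrays, against 533.1 for Des and 209.4 for Ckm. Of the 3 tested markers, Acta1 fell in both mutants and Des in Brg1-/- cells only (limma adjusted p = 0.0457). Ckm passed in neither (limma adjusted p = 0.682 in Snf5-/- and 0.99 in Brg1-/- cells). Myf5, Myf6, Myh8 and Tnnc2 were at or below background in all 10 arrays. The part of muscle cells in the fall of Msx2, Twist2 and Prrx2 was not tested. Leukocyte markers, given above for Prrx2, summed to 2557 to 6267 in Brg1-/- and 2712 to 5836 in WT arrays. Of 11 tested, 2 rose in each mutant and 0 fell. Rising was found for 3.15% of all tested genes in Snf5-/- and 3.43% in Brg1-/- cells. C1qb rose by 1.85 in Snf5-/- and 1.39 in Brg1-/- cells (log2, limma adjusted p = 0.00735 and 0.0147), and C1qc by 1.73 and 1.58 (log2, limma adjusted p = 0.0499 and 0.0398). Their WT means of 73.77 ± 18.3 and 63.97 ± 9.18 (SD, n = 3) were near the background range, so the sizes of these rises are uncertain.

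For the members that passed on both scales, the tested genes with the closest profiles over the 10 arrays were found by the root mean square difference of centred log2 values. Msx2 was closest to Golim4 (0.187), Tmem245 (0.202) and Tcfl5 (0.204), against an SD of 0.665 for Msx2 itself. Twist2 was closest to Pfkp (0.11), Tpbg (0.117) and Cdr2l (0.127). Prrx2 was closest to Ino80c (0.255), Id1 (0.258) and Pam (0.281). These likenesses are descriptions over arrays that share their normalization.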

How the data were processed

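RNA of 10 samples was measured on Affymetrix arrays. The deposited table holds probe set intensity on a linear scale, made by the authors with MAS5, per the submitters' processing notes. The MAS5 version and scaling target are not given in the sources used here. Log2 values were computed from the deposited intensities, as they stand and after quantile normalization across arrays. Probe sets were named by the annotation supplied for the array (20380 with 1 symbol, 691 with several, 1555 with none, and 64 controls left out). A probe set passed the filter if it lay at or above the 40th percentile in at least 3 arrays. A gene was represented by the brightest (mean log2) of its probe sets that passed. Genes with no such probe set were not tested. The test was limma 3.58.1 in R 4.3.3 (lmFit, eBayes with an intensity trend, 3 group means, 7 residual degrees of freedom), two-sided, with Benjamini-Hochberg adjustment over 8403 genes and a threshold of 0.05. A separate fit covered every probe set that passed the filter.

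The members and the gene lists were chosen with earlier results of these data known, and the background level was set after the data were seen. Named genes are all members, both deleted genes, up to 4 genes of a list with the smallest adjusted p in a comparison among those past the threshold on both scales, the 3 closest profiles of each member that passed, and all measured sex-linked genes. Alternatives covered the scale, filter, probe set choice, trend, array weights, groups fitted, a replicate block and each array left out. On data simulated from these arrays the method recovered 94% of 100 genes changed by 2 and 66% of 100 genes changed by 1 (log2). That simulation compared Snf5-/- with wild type over 8403 genes and gave 5 false calls. Its noise was normal and independent between arrays, without differences in array level, and fewer genes were changed than passed in the data. The rule of passing on both scales was not applied, so these figures do not describe the calls made on both scales. Same-numbered replicates did not deviate together (r -0.0726 to 0.11 over 9 pairs), so they were not paired. Promoter windows came from RefSeq tables.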

Additional observations from a re-analysis of the deposited data

Results flagged for a closer look

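Among the 4 Brg1-/- arrays, the fourth replicate stood apart for the brighter Msx1 probe set: its intensity of 1680 was far above the 793 to 947 of the other arrays, and its gap was 0.877 of the group's range on the quantile log2 scale. For the dimmer Tbx5 probe set the third Brg1-/- replicate stood apart, at 14.3 against 40.3 to 50.5, with a gap of 0.85 of the range. Both gaps exceed Dixon's critical value for groups of 4, among 18 probe sets checked, and chance gives about 1 in 20. The Tbx5 set did not enter the test. Without the fourth Brg1-/- replicate the Msx1 change in Brg1-/- cells was 0.51 and -0.02 on the deposited scale.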

How the results depend on the processing

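The fall of Msx2 kept its direction and its call in both mutants under all 31 alternatives. Over all alternatives 672 of 834 log2 changes of members kept direction and call, 50 lost and 16 gained a call, and 96 turned direction, most of them small changes on the deposited scale. The number of members that passed on the quantile scale was 3 in Snf5-/- and 4 in Brg1-/- cells, beside 2 in each that passed on both scales. In Snf5-/- cells it was 5 with every probe set fitted with the filter, 3 with every probe set and no filter, and 1 with only the groups compared fitted, and with 1 array left out it was 1 to 4, and 2 to 3 on the deposited scale. In Brg1-/- cells it was 2 with the replicate block, and 2 to 5 with 1 array left out, or 2 to 4 on the deposited scale. The block also ended the quantile-scale calls of Twist2 (adjusted p = 0.0665) and Twist1 (adjusted p = 0.0849) in Brg1-/- cells, and moved the calls over all genes from 2333 to 2172. For Prrx2 in Snf5-/- cells the call was lost with every probe set unfiltered (adjusted p = 0.0535), with only the groups compared (adjusted p = 0.058) and without the trend (adjusted p = 0.0679). The causes were not tested.

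Directions turned on the deposited scale for Prrx1 (-0.108 in Snf5-/-, -0.484 in Brg1-/-), Tbx15 (-0.284 and -0.411), Pitx1 in Snf5-/- (-0.0252) and Twist1 in Brg1-/- cells (-0.137), all against wild type, and for Tbx15 between mutants (-0.127). Median centring turned Tbx15 (-0.0231 in Snf5-/-, -0.00202 in Brg1-/-) and Prrx1 in Brg1-/- cells (-0.0753), and array weights Tbx15 in Snf5-/- cells (-0.0471). With 1 array left out, over both scales, changes in Snf5-/- cells ran from -0.259 to 0.464 for Prrx1, -1.20 to 0.149 for Tbx5, -0.609 to 0.129 for Tbx15 and -0.176 to 0.318 for Pitx1. In Brg1-/- cells they ran from -0.595 to 0.258 for Prrx1, -0.269 to 0.447 for Twist1, -0.664 to 0.83 for Tbx5, -0.619 to 0.128 for Tbx15 and -0.0176 to 0.878 for Msx1. Between mutants they ran from -0.634 to 0.0272 for Prrx1, -0.545 to 0.0116 for Twist1, -0.297 to 0.289 for Tbx15 and -0.86 to 0.21 for Msx1. None of these changes had passed on both scales.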

Other observations

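Genes of cartilage and bone, which limb mesenchyme can form, were tested for 7 of 17 listed. Col2a1 and Matn3 rose in Snf5-/- cells, by 1.5 and 1.54 (log2, limma adjusted p = 0.00812 and 0.0262), and in Brg1-/- cells 0 passed on either scale in limma's fit (at an unadjusted p under 0.05, 1 on the quantile and 2 on the deposited scale). Of 15 fibroblast markers, Col3a1 rose by 1.84 and S100a4 fell by 1.41 in Snf5-/- cells (log2, limma adjusted p = 0.000286 and 0.0111), and S100a4 and Pdgfrb fell by 2.42 and 0.84 in Brg1-/- cells (limma adjusted p = 0.000142 and 0.00274).

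Epithelial markers were tested for 7 of 14 genes, of which 1 fell in Snf5-/- and 4 fell in Brg1-/- cells. Over all tested genes 7.46% fell in Snf5-/- and 12.9% in Brg1-/- cells. Dsp averaged 31.13 ± 18.6 in Snf5-/- (SD, n = 3) and 18.7 ± 8.62 in Brg1-/- arrays (SD, n = 4), against 319.1 ± 147 in WT arrays (SD, n = 3), and no fold is given because both mutant means lay near or below the arrays' background. Among 3 tested endothelial markers Tek rose in Snf5-/- and Brg1-/- cells (limma adjusted p = 0.0114 and 0.000911), and Kdr and Eng fell in Brg1-/- cells. Tek averaged 45.4 ± 7.52 in WT arrays (SD, n = 3), within the background range of 26.7 to 57.4, so no fold is given for it. Of 8 tested neural markers 2 fell in each mutant, with Gap43 falling by 0.94 in Snf5-/- and 1.09 in Brg1-/- cells (log2, limma adjusted p = 0.034 and 0.00797). Their part in the members' values was not tested.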
